A study of Mus musculus with 4 samples.

Results

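The S-phase and G2/M genes were followed through B cells of the Peyer's patches, which are lymphoid tissue in the wall of the small bowel. The set holds 48 named genes, 21 of S phase and 27 of G2 and mitosis, out of 31053 genes counted. They were taken by name, with earlier results of these data known, and all 48 were found in the count tables. The counts are of RNA molecules in individual cells bearing CD45, a surface protein of leukocytes, taken from female wild-type Taconic mice without or with segmented filamentous bacteria (SFB), which attach to the gut epithelium. The groups are called SFB-negative and SFB-positive, with 2 libraries each, cells of 5 mice pooled per group, and no age or further treatment in the labels. Nothing in the labels tells if a group's replicates 1 and 2 came from different mice, so p-values measure at most the spread between libraries, which may be technical.

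Cells grow and license origins of replication in G1, and in S phase these origins fire and the DNA is copied once. G2 and mitosis follow, where the copied chromosomes are separated. E2F factors, held back by retinoblastoma proteins, switch on many S-phase genes, and complexes built around the MuvB core with B-Myb and FoxM1 switch on many mitotic genes. In the germinal centre of a lymphoid follicle, B cells divide fast in the dark zone and are selected in the light zone, and Peyer's patches hold germinal centres throughout life.

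The authors' table placed 22569 cells in 7 clusters, and B-lineage markers were present in each. Clusters 0 and 1 carried the most naive B cell markers, cluster 3 germinal-centre markers and cluster 6 plasma cell markers, and clusters 2, 4 and 5 are called by number. Cluster 3, the germinal-centre-like cells, held 148 and 719 cells without SFB (replicates 1 and 2) and 203 and 830 with SFB. All 9 germinal-centre markers were detected in cluster 3 of every library, with summed levels of 1819 to 2214 CPM, against 76.1 to 157 in cluster 2. Cluster 5 also held all 9 in the replicate 2 libraries, at 1679 and 1905 CPM. Depth differed by replicate number: the median cluster 3 cell held 4185 and 4144 UMIs in the replicate 1 libraries, and 7359 (SFB-negative) and 17122 (SFB-positive) in the replicate 2 libraries. The replicate number also separates versions of the counting software, per the file headers, so it marks a technical batch, and values within each number are read side by side below. Any pair of libraries shared 0 to 40 cell barcodes. CPM are the UMIs of a gene scaled to the same total for all UMIs of the summed cells, always in the order SFB-negative replicates 1 and 2, then SFB-positive replicates 1 and 2. With summed cells, fewer cells of a kind and less RNA per cell cannot be told apart.

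Nearly all of the cell-cycle genes were higher in cluster 3 than in naive-like cells. Of the 48 genes, 47 were higher in cluster 3 than in the naive-like clusters 0 and 1 in each of the 4 libraries. The clusters were built from the same cells and genes, so these folds describe the clusters and were not tested. For 37 genes the naive-like clusters held over 3 UMIs in all 4 libraries, and 25 of these were over 10-fold higher in every library. The median fold over the libraries ran from 1.01 for Cdt1 to 214 for Pclaf among these genes.

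**Figure D1:**
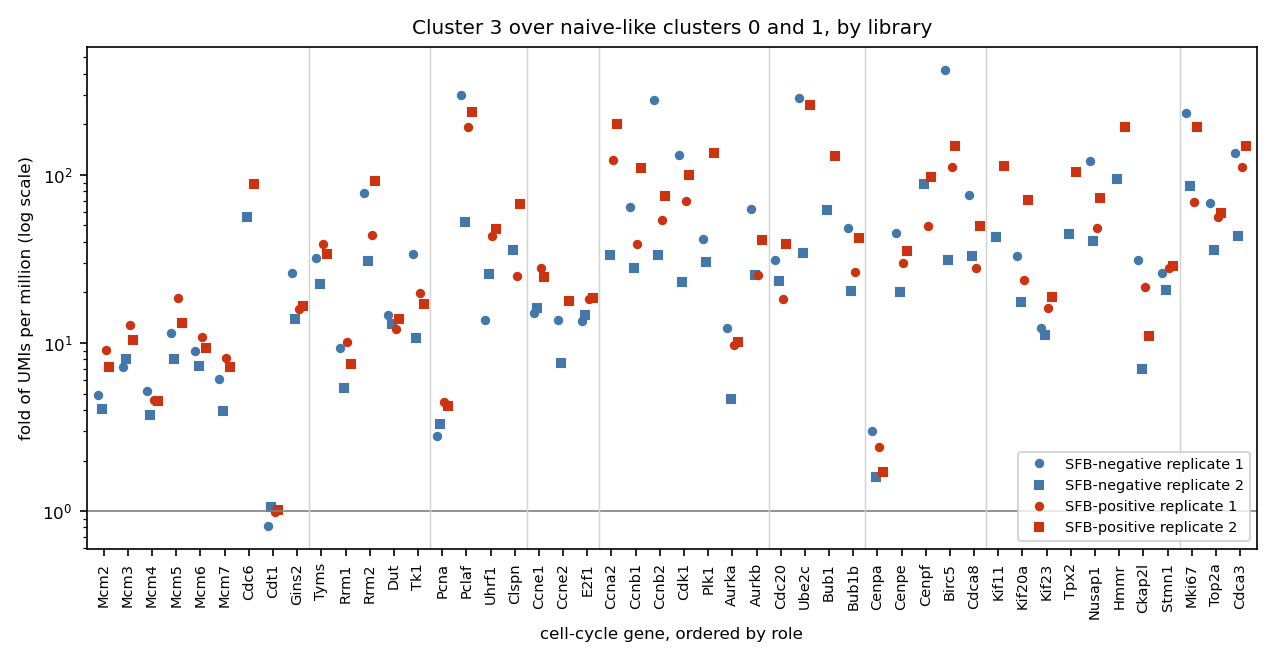
Fold of the level in cluster 3 over naive-like clusters 0 and 1 (log axis) for each of the 48 genes, ordered by role with grey lines between roles. Circles are replicate 1 and squares replicate 2, blue SFB-negative and red SFB-positive. Libraries with 3 or fewer UMIs of the gene in the naive-like clusters are not drawn. Cdt1 lies at 1 and Cenpa near 2, while most G2/M genes lie above 10.

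The summed S-phase list reached 4184, 2310, 4910 and 3002 CPM in cluster 3, against 448, 262, 393 and 285 in cluster 0. The summed G2/M list reached 6212, 3620, 5566 and 5440 in cluster 3, against 236, 216, 269 and 227 in cluster 0. The lowest cluster 3 library was thus far above the highest library of cluster 0 for both lists. Cluster 4 stayed near the level of cluster 0, with 333, 240, 338 and 257 for S phase and 217, 220, 268 and 311 for G2/M. Cluster 2 carried more of the S-phase list than cluster 0 in every library (603, 367, 883 and 645). Its summed G2/M list (235, 198, 271 and 235) lay at or near the level of cluster 0, but single genes moved in opposite directions. Cenpa was lower in cluster 2, with 72.8, 46.8, 68.6 and 59.8 against 125, 89.6, 128 and 136 in cluster 0. Stmn1 was higher, with 103, 53.9, 124 and 46.5 against 60.6, 43.4, 70.5 and 26.2.

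**Figure D2:**
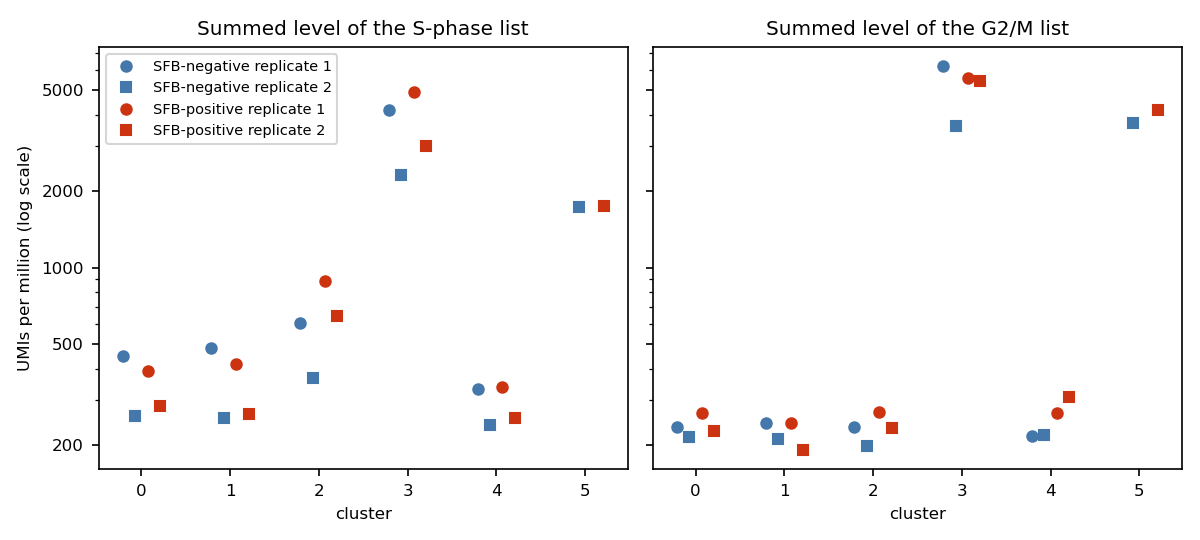
Summed level of the 21 S-phase genes (left) and the 27 G2/M genes (right) in CPM (shared log axis) in clusters 0 to 5, 1 point per library with at least 20 cells. Clusters 3 and 5 stand above the others in both panels, and cluster 2 only in the left one.

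Cluster 5 held 258 and 209 cells in the replicate 2 libraries and 1 and 0 in the replicate 1 libraries, so it has no SFB test. Its cells had few UMIs (medians 1289 and 1115), with S-phase levels of 1728 and 1752 and G2/M levels of 3700 and 4188 in SFB-negative and SFB-positive replicate 2. Mki67 stood there at 794 and 1025 CPM, above its level in cluster 3 of any library, while Ube2c (69.2 and 88.5) and Stmn1 (250 and 271) lay far below cluster 3.

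Because depth differed, cells were also thinned to 1000 UMIs each. Mki67, the proliferation antigen that coats mitotic chromosomes, then had a UMI in 12.9%, 13.6%, 14% and 33.5% of cluster 3 cells (40.5%, 46.9%, 41.4% and 74.2% before thinning). In naive-like cluster 0, which should lack it, the thinned shares were 0.0563%, 0.401%, 0.0797% and 0.308% (unthinned 0.139%, 0.746%, 0.405% and 1.94%). Median depths were 4185, 7359, 4144 and 17122 UMIs in cluster 3 and 1209, 2962, 1212 and 5249 in cluster 0, and 1, 0, 3 and 0 cells of cluster 3 were too shallow to thin. The G2/M list as a whole is less selective per cell: any of its genes had a UMI in 20.8%, 19.6%, 22.8% and 19.5% of thinned cluster 0 cells, against 70.7%, 64.3%, 80.5% and 71.8% in cluster 3.

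The lists also differed in the words their promoters held. RefSeq promoters (build GRCm38.p6, 250 bases before to 50 after the start) matched 40 of the 48 genes, with 42 promoters in all; Mcm4, Gins2, Ccne2, Ccna2, Aurkb, Kif20a, Tpx2 and Stmn1 were not matched. An E2F word (TTNNCGC with C or G at each N, either strand) was in 13 of 20 S-phase promoters (65%), 4 of 22 G2/M promoters (18.2%) and 9.57% of all 32851 promoters. The cell cycle homology region word (CHR, TTTGAA, either strand), which the MuvB complexes bind, was in 17 of 22 G2/M promoters (77.3%), 1 of 20 S-phase promoters (5%) and 17.9% of all. All 17 also held a CCAAT word (either strand), a pairing found in 6.95% of all promoters, and CCAAT alone was in 13 of 20, 20 of 22 and 37.4%. Matches of different words overlapped in the promoters of Ccnb1, Cdca8 and Mcm7, in each case a CCAAT word with an E2F or CHR word. A match is a description of letters, not a bound site. The 150 bases before the start of 6 genes are shown 5′ to 3′ on the gene's strand, with E2F and CHR words in capitals (an E2F word on each strand can share letters, as in Mcm6). Mcm6 and Rrm1 stand for S-phase genes with E2F words, Mcm2 is the S-phase gene with the CHR word, Mki67 holds both, and Top2a and Kif11 hold a CHR word (TTCAAA on the strand printed).
Mcm6, chr1:128359706-128359855, minus strand: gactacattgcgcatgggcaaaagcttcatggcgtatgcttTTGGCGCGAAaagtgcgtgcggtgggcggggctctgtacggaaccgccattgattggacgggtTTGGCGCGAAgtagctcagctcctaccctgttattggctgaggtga
Rrm1, chr7:102441545-102441694, plus strand: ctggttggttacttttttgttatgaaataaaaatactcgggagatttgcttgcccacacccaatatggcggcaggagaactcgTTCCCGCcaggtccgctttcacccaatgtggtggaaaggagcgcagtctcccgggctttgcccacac
Mcm2, chr6:88898781-88898930, minus strand: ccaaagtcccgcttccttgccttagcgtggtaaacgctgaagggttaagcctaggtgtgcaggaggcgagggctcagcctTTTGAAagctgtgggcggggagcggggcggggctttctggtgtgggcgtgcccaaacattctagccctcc
Mki67, chr7:135716380-135716529, minus strand: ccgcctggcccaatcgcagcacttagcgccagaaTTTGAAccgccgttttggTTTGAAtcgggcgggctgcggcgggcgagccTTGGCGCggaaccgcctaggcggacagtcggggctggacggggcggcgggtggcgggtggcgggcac
Top2a, chr11:99024190-99024339, minus strand: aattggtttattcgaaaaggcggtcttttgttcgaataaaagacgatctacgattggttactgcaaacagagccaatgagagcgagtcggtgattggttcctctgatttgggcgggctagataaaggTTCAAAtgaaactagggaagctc
Kif11, chr19:37376232-37376381, plus strand: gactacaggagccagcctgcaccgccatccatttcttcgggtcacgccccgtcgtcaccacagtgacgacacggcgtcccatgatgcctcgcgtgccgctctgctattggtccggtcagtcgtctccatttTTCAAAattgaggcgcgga

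Among the licensing genes, the Mcm2 to Mcm7 subunits of the replicative helicase stood above the naive-like cells in every library. Mcm6 had 227, 166, 241 and 259 CPM in cluster 3, Mcm3 189, 139, 253 and 258, and Mcm5 226, 89.8, 251 and 172. Their median folds over the naive-like clusters were 9.09, 9.18 and 12.3, and Mcm4 had the lowest of the helicase subunits, 4.57. Cdc6, which loads the helicase, was at 0 to 13 UMIs in all naive-like cells of a library and at 25.6 to 45.4 CPM in cluster 3. Cdt1, its partner in loading, was flat, with folds of 0.818, 1.06, 0.994 and 1.02. The annotation places a gene on the same strand over Cdt1 (Gm20388), so reads there can be shared or lost in counting, and the level of Cdt1 is uncertain. Other annotated genes, several of them microRNAs, lie on the same strand over Clspn, Kif11, Mcm7, Nusap1, Pclaf, Rrm1, Stmn1, Top2a and Tpx2. The same doubt may hold there, but whether any of the overlapping genes was among those counted was not checked.

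In nucleotide supply the folds differed between partners. Rrm2, the regulated subunit of ribonucleotide reductase, had 355, 81.7, 343 and 163 CPM and a median fold of 61.0, while its partner Rrm1 had 147, 91.2, 133 and 143 and a median fold of 8.39. Dut, which removes dUTP before it enters DNA, had 400.5, 388, 536 and 334 with a median fold of 13.4. Of the genes that work at the fork, Pclaf, a small PCNA-binding protein, had 1157, 542, 1451 and 510.1, and Pcna, the sliding clamp, had 314, 109, 364 and 106. Their median folds over the naive-like clusters were 214 and 3.74. Replicate 1 libraries were above replicate 2 libraries for both genes in both groups. Clspn, an adaptor of the replication checkpoint, had the opposite order, with 49.9, 102, 56.0 and 159.

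Of the G1/S genes, E2f1 had 61.6, 32.5, 86.6 and 55.2 CPM in cluster 3, Ccne1 had 30.8, 15.4, 46.5 and 18.2 and Ccne2 had 24.9, 20.8, 42.2 and 27.3. E2f1 is itself a target of the E2F factors, and the cyclins E encoded by Ccne1 and Ccne2 drive entry into S phase with Cdk2. Their median folds over the naive-like clusters were 16.5, 20.4 and 13.7, Ccne2 over 3 libraries.

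Among the mitotic genes the median fold over the naive-like clusters was 64.4 for Ccnb2, 85.1 for Cdk1 and 129 for Birc5. Ccnb2, a B-type cyclin, had 255, 119, 226 and 145 CPM, its relative Ccnb1 176, 42.4, 118 and 80.9, and their kinase Cdk1 179, 83.3, 136 and 97.2. Ccna2, cyclin A2 of S phase and G2, had 176, 62.0, 136 and 115. Ube2c, the ubiquitin-conjugating enzyme that works with the anaphase-promoting complex (APC/C), had 392, 187, 327 and 260.0, and Cdc20, its activator, had 257, 70.3, 152 and 109. SFB-negative replicate 2 was the lowest of the 4 libraries for each of these 6 genes. Bub1b, a kinase-like protein of the spindle checkpoint, had 44.0, 42.2, 37.0 and 86.2. At the centromere, Birc5 (survivin, of the chromosomal passenger complex) had 384, 207, 372 and 202, and its partner Cdca8 had 261, 166, 209 and 233. Cenpa, the centromeric histone H3 variant, was the least selective of the G2/M genes, with 349, 141, 286 and 192 in cluster 3 and folds of only 3.0, 1.59, 2.39 and 1.71.

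Stmn1, which destabilises microtubules, had 1765, 881, 1875 and 839 CPM, and Nusap1, which binds spindle microtubules, had 192, 161, 149 and 191. Tpx2, which activates aurora A on the spindle, had 83.6, 78.4, 50.7 and 148. Top2a, the topoisomerase that untangles chromosomes, had 358, 456, 344 and 677, and Mki67 had 213, 225, 193 and 717. For Mki67 only SFB-positive replicate 2 stood apart, and SFB-positive replicate 1 was the lowest library. Cdca3, a mitotic entry factor, had 276, 99.9, 249.2 and 133.

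Within cluster 3, most cells held UMIs of both lists, while single genes followed their own list. After thinning to 3000 UMIs (100, 664, 160 and 815 cells used), 92%, 72%, 92.5% and 80.1% of cells held UMIs of both lists, and 2%, 5.27%, 1.25% and 2.70% of neither. Pearson's correlation of the log sums of the lists across cells was 0.40, 0.60, 0.54 and 0.50. Each gene was then set against the sum of each list without itself, as a description with no test, since the cells share libraries. All 21 S-phase genes were nearer to the S-phase sum in at least 3 libraries (Cdt1 in 3, the others in 4), and 26 of the 27 G2/M genes were nearer to the G2/M sum in all 4. The exception was Stmn1, at 0.64 with S phase and 0.63 with G2/M, and Pclaf lay beside it at 0.63 and 0.61. In 5 genes of mitosis the mean correlation with the S-phase sum was below 0: -0.089 for Cenpa, -0.052 for Cdc20, -0.045 for Ube2c, -0.029 for Ccnb1 and -0.025 for Ccnb2. Mki67 (0.33 and 0.56) and Top2a (0.46 and 0.59) lay between. Weak correlations in sparse counts are no finding.

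**Figure D3:**
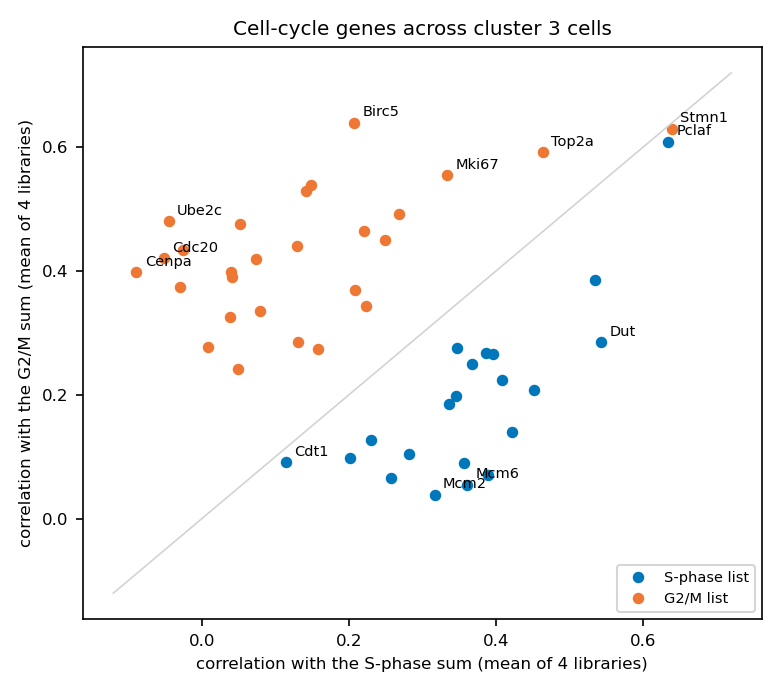
Each point is 1 of the 48 genes, placed by its mean correlation over the 4 libraries with the S-phase sum (x axis) and the G2/M sum (y axis), without itself, across cluster 3 cells thinned to 3000 UMIs. S-phase genes (blue) lie below the grey line of equal correlation and G2/M genes (orange) above it, except Stmn1, which lies on it beside Pclaf.

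Depth of the cell moved with both lists. With the cluster 3 cells of each library divided by depth into 3 equal parts, from the shallowest to the deepest part the S-phase level went from 1223 to 5075, 893 to 3058, 2939 to 5781 and 1038 to 3856 CPM, and the G2/M level from 1344 to 8575, 1327 to 5169, 3053 to 7207 and 1733 to 7684. The order held in all 4 libraries. The part of doublets in the deep cells was not tested.

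The germinal-centre-like cells were next divided by the heavy-chain constant gene that supplied most of their constant-gene UMIs: Ighm (IgM, not switched), Ighg1, Ighg2b or Igha. The 13 combinations of class and library with at least 20 cells entered 1 fit with the library as a term, so classes were compared within libraries, and 6 pairs were compared over 5841 genes with edgeR's quasi-likelihood test. Ighm cells numbered 47, 130, 49 and 156, Ighg1 cells 63, 356, 15 and 45, Ighg2b cells 11, 32, 58 and 200, and Igha cells 16, 37, 63 and 378. Cells of 1 library share their mice, and classes within it are not separate animals.

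Few of the cell-cycle genes passed the test between the classes. Against Ighm cells, 2 of 48 genes were higher and 0 lower in Ighg1 cells (3.17% of all genes were called higher and 3.99% lower), 1 was higher and 1 lower in Igha cells (2.47% and 4.64%), and 0 of 48 passed in Ighg2b cells (6.68% called either way). The share of members called was therefore near or below the background in each contrast. The genes higher in Ighg1 cells were Ccnb2 and Ube2c. In Ighm and Ighg1 cells, Ccnb2 had 207 and 358 CPM in SFB-negative replicate 1. It had 92.8 and 128 in SFB-negative replicate 2, and 136 and 185 among cells of SFB-positive replicate 2. Ube2c had 387 and 512, 163 and 204, and 281 and 413 in the same libraries. Both were thus higher in Ighg1 cells in 3 of 3 libraries, by log2 0.56 ± 0.13 (SE; edgeR adjusted p = 0.00366) for Ccnb2 and 0.45 ± 0.11 (adjusted p = 0.00796) for Ube2c.

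In Igha cells Mcm6 was higher and Top2a lower than in Ighm cells. In Ighm and Igha cells Mcm6 had 163 and 271 CPM in SFB-negative replicate 2. With SFB it had 230.5 and 276 in replicate 1 and 209 and 284 in replicate 2. Top2a had 533 and 515, 425 and 304, and 857 and 607 in these libraries. The log2 differences were 0.44 ± 0.12 (SE; edgeR adjusted p = 0.0116) for Mcm6 and -0.38 ± 0.10 (adjusted p = 0.0157) for Top2a, in the stated direction in 3 of 3 libraries. Without SFB-positive replicate 2, Mcm6 (log2 0.50, adjusted p = 0.375) and Top2a (-0.23, 0.769) no longer passed, and Cdc20 alone of the members passed in Igha cells. In Ighg1 cells, Ccnb2 (0.65, adjusted p = 0.0551) and Ube2c (0.36, 0.428) no longer passed without that library. All 4 kept their direction with each library left out in turn, from 0.53 to 0.65 for Ccnb2, 0.36 to 0.54 for Ube2c, 0.37 to 0.51 for Mcm6 and -0.49 to -0.23 for Top2a. Mcm6 also lost its call without SFB-negative replicate 2 (adjusted p = 0.138), and Top2a without SFB-positive replicate 1 (0.0726). With cells limited to 2980 genes in every library, which keeps 80 of the 830 cluster 3 cells of that library, no member passed in Ighg1 or Igha cells and Top2a turned to 0.23.

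Between switched classes no member passed. In Igha minus Ighg1 cells 0 of 48 passed (0.205% of all genes called; 10 members at an unadjusted p under 0.05 in edgeR, 0 called by DESeq2), with Ube2c nearest at log2 -0.57 ± 0.13 (adjusted p = 0.0550). In Igha minus Ighg2b cells 0 of 48 passed (0.188%; 0 members under 0.05 unadjusted and 0 by DESeq2), and in Ighg2b minus Ighg1 cells 0 of 48 (0%; 4 and 0). Ighg2b minus Ighm cells had 2 members under 0.05 unadjusted and 0 called by DESeq2. For Mki67 the log2 difference from Ighm cells was -0.035 ± 0.11 in Ighg1, -0.046 ± 0.12 in Ighg2b and -0.21 ± 0.12 in Igha cells.

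Some genes that act before S phase also differed. In the list of 16 G1 and cyclin-dependent kinase (CDK) control genes, 14 were tested, all against Ighm cells. Lower and higher were 5 and 0 in Ighg1 cells, 4 and 0 in Ighg2b cells, and 5 and 1 in Igha cells. Of all genes, the shares called lower and higher were 3.99% and 3.17% in Ighg1 and 4.64% and 2.47% in Igha cells. In Ighg2b cells 6.68% were called either way. Ccnd2 (cyclin D2), Cdkn1b (the CDK inhibitor p27), Rb1 (the retinoblastoma protein) and Btg2 (an antiproliferative factor) were lower in all 3 switched classes by the test. For Rb1 in Igha cells the libraries did not share a direction: it had 39.1 CPM in Ighm and 48 in Igha cells of SFB-negative replicate 2, 15.9 and 13.8 with SFB in replicate 1, and 77.5 and 27.3 with SFB in replicate 2. Without SFB-positive replicate 2 the log2 difference of Rb1 was 0.26. Ccnd2 differed by log2 -1.56, -1.14 and -1.64 in Ighg1, Ighg2b and Igha cells (edgeR adjusted p = 0.000468, 0.00282 and 2.1e-05), and Cdkn1b fell by 1.09, 1.81 and 1.51 (adjusted p = 0.00229, 1.39e-05 and 4.05e-05). Among the cells of SFB-positive replicate 2, Cdkn1b had 78.6 CPM in Ighm cells and 23.8, 17.1 and 21.7 in the switched classes, and in SFB-negative replicate 2 it had 54.7 against 39.9, 37.9 and 44.6. The gap was therefore wide in the former library and small in the latter. Btg1, a relative of Btg2, was lower in Ighg1 and Igha cells, and Ccnd3 (cyclin D3) was higher in Igha cells by 0.41 ± 0.12 (adjusted p = 0.0203).

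Among 8 light-zone genes 2 were lower and 0 higher in Igha than in Ighm cells (4.64% and 2.47% of all genes). They were Cd83, by 0.47, and Myc, by 1.16 (log2). In SFB-positive replicate 1 Cd83 was higher in Igha cells (549 against 509 CPM). Across SFB-negative replicate 2 and both SFB-positive libraries, Myc and Nfkbia were always lower in Igha cells and Icam1 always higher. Cd86, Cd40, Bcl2a1b and Slamf1 did not keep the same direction in these libraries. Cdc25b, the phosphatase that activates Cdk1, was higher in Ighg1 than in Ighm cells by 0.66 ± 0.15 (edgeR adjusted p = 0.0029; 3.17% of all genes called higher). It is named from a longer list of cycle activators, whose share called is not given here. Its level was also higher in Igha than in Ighm cells, 65.2 against 43.0 CPM in SFB-negative replicate 2. With SFB it was 117 against 67.5 in replicate 1 and 115 against 96.6 in replicate 2. Naive markers moved with the Ighm class. The 6 naive B cell markers summed to 652, 546, 866 and 678 CPM in Ighm cells, against 390, 305, 252 and 175 in Igha cells. All 6 were detected in cluster 3 of every library, and 5, 5, 5 and 6 in its Igha cells. Ighd is among the 6 and also among the 8 constant genes that set the class, so part of this gap can follow from the grouping. The part of naive markers in the lower Ccnd2, Cdkn1b, Rb1 and Btg2 of switched cells was not tested. Without SFB-positive replicate 2, none of Ccnd2, Cdkn1b or Rb1 passed in any switched class (lowest adjusted p 0.168), and Btg2 passed in Igha cells only. Btg2 also lost its call without SFB-positive replicate 1 in Ighg1 and Ighg2b cells (0.0577 and 0.176), and without SFB-negative replicate 1 in Ighg2b cells (0.0588).

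**Figure D4:**
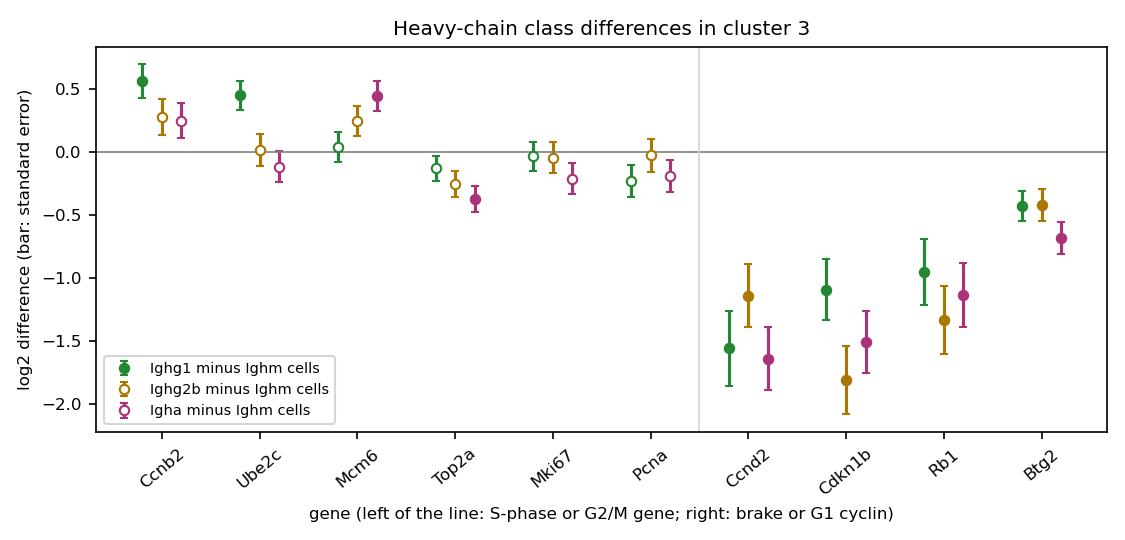
Log2 difference from Ighm cells in cluster 3 for Ighg1 (green), Ighg2b (ochre) and Igha (purple) cells, with the standard error as a bar; filled points passed at an adjusted p of 0.05. Cell-cycle genes left of the grey line lie between -0.38 and 0.56, while Ccnd2, Cdkn1b, Rb1 and Btg2 on the right lie below 0 in all 3 classes (Rb1 in Igha cells turned to 0.26 without SFB-positive replicate 2).

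SFB status was compared over libraries. In cluster 3, 0 of 48 genes passed (0% of 9876 genes called; 0 members at an unadjusted p under 0.05 in edgeR and 0 called by DESeq2). With the replicate number as a term, 0 of 48 passed again (1.35% of all genes called), with 3 members under 0.05 unadjusted: Mki67 at log2 0.72 ± 0.34, Mcm2 at 0.67 ± 0.30 and Kif20a at 0.66 ± 0.29 (adjusted p = 0.468, 0.404 and 0.397). The median log2 difference of the 48 genes was 0.15, against 0.073 for all genes tested. Within replicate 1 the G2/M level of SFB-positive over SFB-negative cells was 0.896, and within replicate 2 it was 1.5, so the direction depended on the pair. The S-phase ratios were 1.17 and 1.30. In 5 of 48 genes the SFB-positive libraries both lay above both SFB-negative ones (10% of all genes): Mcm3, Mcm6, Cdc6, Uhrf1 and Ccne2, named after their values were seen. Of the G1 control genes, Cdk6, a kinase of the D cyclins, rose with the replicate block by 1.20 ± 0.31 (adjusted p = 0.0138), from 19.1 and 28.0 to 30.6 and 85.9 CPM.

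In cluster 2 the summed S-phase list was higher in the SFB-positive library of each replicate number, with no test of the sum. Under the replicate block 2 single genes passed, and 0 without it. The summed S-phase level was 603 and 367 CPM without SFB and 883 and 645 with SFB, so these sums did not overlap. Within replicates 1 and 2 the ratios were 1.46 and 1.76, and the G2/M ratios were 1.15 and 1.19. As a mean over cells the S-phase level was 594, 328, 727 and 462, and there the groups overlapped. Mcm2 had 30.9, 14.4, 84.5 and 30.3 CPM, Mcm3 had 45.2, 33.0, 68.6 and 95.3, and Mcm6 had 35.3, 33.3, 82.1 and 69.8. Pclaf had 9.93, 11.5, 46.5 and 24.0, and Uhrf1, which copies DNA methylation marks at the fork, had 11.0, 6.47, 15.9 and 17.8. In these 5 genes each SFB-positive library exceeded the SFB-negative library of its number, and the groups overlapped for Mcm2 only. Of the 24 members that passed the count filter, 14 did not overlap, all higher with SFB, against 9.68% of all genes in that direction. These are not all members, and the count supports nothing further. Pcna (163, 39.4, 148 and 48.6), Cdt1 (108, 28.8, 77.2 and 39.9) and Rrm1 (27.6, 20.3, 25.7 and 28.7) overlapped, and Mki67 stayed near 0 in the replicate 1 libraries (2.21 and 2.45) and at 5.59 and 10.2 in the others.

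**Figure D5:**
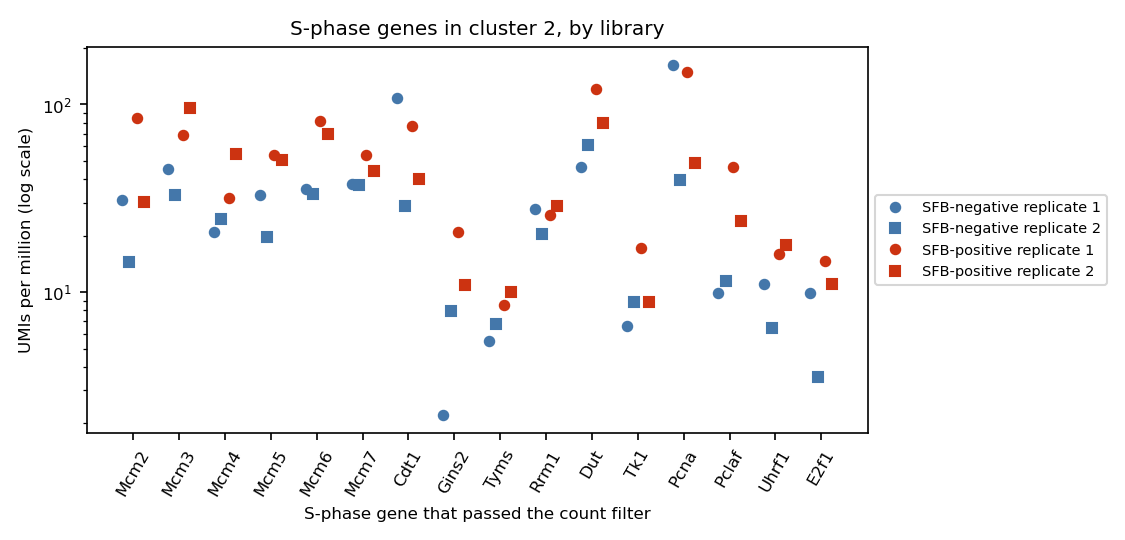
Level in cluster 2 (CPM, log axis) of the 16 S-phase genes that passed the count filter there. Circles are replicate 1 and squares replicate 2, blue SFB-negative and red SFB-positive. Both red points lie above both blue ones for Mcm3 to Mcm7, Gins2, Tyms, Dut, Tk1 (barely), Pclaf, Uhrf1 and E2f1, and not for Mcm2, Rrm1, Pcna and Cdt1.

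Of the 48 genes, 24 passed the count filter in cluster 2, 16 of S phase and 8 of G2/M. Without the replicate block 0 of 24 passed (0% of 8913 genes; 0 under 0.05 unadjusted in edgeR and 0 called by DESeq2). With it, 2 of 24 were higher with SFB (0.258% of all genes were called higher): Pclaf by log2 1.20 ± 0.33 (adjusted p = 0.0311) and Mcm2 by 1.03 ± 0.29 (adjusted p = 0.0382). With that block the spread is taken from all genes together. The change was tested against that in naive-like cluster 0 by a fit chosen after seeing the data, with library and cluster as terms. Pclaf differed (log2 2.88 ± 0.39, edgeR adjusted p = 2.67e-09, 0.00998% of all genes called) and Mcm2 did not pass (1.20 ± 0.29, adjusted p = 0.0811). In cluster 3 the same kind of fit called 0 of 48 genes (0.0461% of all genes; 9 members under 0.05 unadjusted in edgeR, DESeq2 not run). Without SFB-negative replicate 2, Pclaf in the cluster 2 fit was at 1.79 (adjusted p = 0.993), and with cells limited to 2980 genes at 2.0 (0.552), while the cluster 2 calls of Pclaf and Mcm2 were both lost under the gene limit. The S-phase UMIs of cluster 2 were held by few cells: the 5% of cells with most of them carried 25.8%, 26.8%, 32.0% and 48.1%, and without these cells the level was 476, 286, 653 and 380. Without them the SFB-positive libraries were each still above the SFB-negative library of the same number. The groups then overlapped, with 380 in SFB-positive replicate 2 under 476 in SFB-negative replicate 1.

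In the naive-like clusters some genes were lower with SFB under the replicate block, at very low counts. In cluster 0, where 39 of 48 genes were tested, the log2 change of Pclaf was -1.66 and that of Birc5 -1.97 (edgeR adjusted p of 0.00124 and 0.00688; 1.92% of all genes called lower). Pclaf had 12, 148, 14 and 34 UMIs there and Birc5 had 2, 89, 7 and 16, so SFB-negative replicate 2 stood above the other libraries, and without it Pclaf was at 0.066. In cluster 1, of 35 genes tested, Ube2c fell by 2.86 (adjusted p = 0.0102; 0.851% called lower) on 4, 41, 1 and 13 UMIs. In cluster 4, 0 of 17 genes tested passed with the block (1.53% called; 0 under 0.05 unadjusted) and 0 without it (0%; 0 under 0.05 unadjusted and 0 by DESeq2). Without the block 0 genes passed in clusters 0 and 1 (0%; 0 and 1 under 0.05 unadjusted, 0 and 0 by DESeq2).

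Over all B-lineage cells together, 0 of 48 genes passed without the block (0% of 12268; 0 under 0.05 unadjusted in edgeR, 0 by DESeq2). With it 6 of 48 were higher with SFB and 0 lower (0.929% of all genes were called higher and 2.68% lower), and 23 of 48 were under 0.05 unadjusted. They were Mki67 (1.02 ± 0.25, adjusted p = 0.00239), Cenpf (0.94 ± 0.22, 0.00185), Kif20a (0.88 ± 0.27, 0.0337), Cenpe (0.76 ± 0.22, 0.0226), Rrm2 (0.74 ± 0.22, 0.0240) and Kif11 (0.73 ± 0.23, 0.0492). Cenpf and Cenpe are kinetochore proteins, and Kif11 and Kif20a are motors of the spindle and of cytokinesis. Mki67 had 24.3, 55.2, 33.6 and 192 CPM, Cenpf 10.4, 22.0, 14.6 and 64.1, and Cenpe 18.3, 28.8, 23.3 and 75.7. In these 3 genes SFB-negative replicate 2 lay above SFB-positive replicate 1, so the groups overlapped. Rrm2 had 42.4, 17.7, 60.2 and 43.3, Kif11 had 6.15, 19.7, 7.89 and 46.2, and Kif20a had 7.10, 3.35, 8.73 and 10.2. The groups did not overlap for Rrm2 and Kif20a and overlapped for Kif11. In 26 of 48 genes both SFB-positive libraries lay above both SFB-negative ones, against 7.74% of all genes in that direction. The share of cluster 3 among the cells in the table was 3.65%, 9.30%, 5.96% and 11.2%, higher with SFB within each replicate number, and its part in these differences was not tested. With cells limited to 2980 genes, 0 of 48 passed with the block and the median of the 48 turned to -0.41, from 0.43. Without SFB-positive replicate 2, Mki67, Cenpf and Kif11 turned below 0 in the fit without the block.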

How the data were processed

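Single-cell RNA counts came from 4 Chromium 3′ libraries, 2 per SFB group. The deposited count matrices hold raw UMI counts per gene and cell; per the file headers, version 6.0.0 of Cell Ranger made the replicate 1 matrices and version 7.0.0 the others, whereas the submitters' processing notes list 5.0.1 and mm10. The deposited cell table gives cluster numbers, and its percent and score columns were made by the authors and not used for tests. How the authors treated doublets is not given in the sources used here, and none were removed. UMIs were summed per library and cluster, or per library and dominant heavy-chain constant gene (the majority of at least 2 UMIs of 8 genes). Sums of at least 20 cells were tested with edgeR 4.0.16 (R 4.3.3; TMM, filterByExpr, robust quasi-likelihood fit, Benjamini-Hochberg adjustment over all genes tested, limit 0.05), without the replicate number as a term. DESeq2 1.42.0 was an alternative. The test was checked on simulated counts. They had the same fixed spread for every gene, not one estimated from these libraries, so the check does not cover the real spread. For the SFB fit without the replicate number the simulated counts also held no replicate-number effect, so that spread is not covered either.

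Same-numbered libraries deviated together (correlation 0.88 over 12268 genes in all B-lineage cells, 0.77 over 9876 in cluster 3), but with 2 pairs the pairing is not established. Total counts were 7198366, 47273320, 6979187 and 83600989 UMIs, and values after ± are standard errors of the edgeR fits. Members and lists were chosen with earlier results of these data known. Named genes were the 3 members of highest mean CPM in cluster 3 in each role, those that passed a test, and Mki67, Pcna, Ccnb1, Ccne1, Ccne2 and E2f1; others are named as exceptions after their values were seen. The alternatives were other size factors, no count filter, DESeq2, each library left out, a limit of 2980 genes per cell and at least 5 constant UMIs; the tests of a difference between clusters and the gene limit with the replicate block were added after seeing the data. The result of 1 gene of the fixed lists is not reported here.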

Additional observations from a re-analysis of the deposited data

Results flagged for a closer look

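The SFB difference of Pclaf was not the same in cluster 2 and in naive-like cluster 0, by a test of the difference itself (log2 2.88 ± 0.39, edgeR adjusted p = 2.67e-09). Pclaf had 9.93, 11.5, 46.5 and 24.0 CPM in cluster 2 and 4.20, 12.1, 6.81 and 2.56 in cluster 0. The difference rested on 9 to 163 UMIs per library in cluster 2 and 12 to 148 in cluster 0. It lost its call without SFB-negative replicate 2.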

How the results depend on the processing

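With the replicate block the members called were 6 in all B-lineage cells, 2 in cluster 0, 1 in cluster 1 and 2 in cluster 2, against 0 without it, and the block changed no call in clusters 3 and 4. Clusters 0 and 1 stayed at 2 and 1 with the block and the limit of 2980 genes per cell. That limit left 0 members called in Ighg1 and Igha minus Ighm cells, 1 in Ighg2b minus Ighm cells and 0 in cluster 2 minus cluster 0. DESeq2 called 1 member in each of Ighg1 and Igha minus Ighm cells, at least 5 constant UMIs gave 1 in Igha minus Ighm cells, and no count filter gave 1 in Igha minus Ighg1 cells. Other size factors gave 2 in cluster 2 minus cluster 0. Leaving out each library in turn gave 1 to 2 members in Igha minus Ighm cells, 0 to 2 in Ighg1 minus Ighm cells, 0 to 2 in cluster 2 minus cluster 0 and 0 to 4 in cluster 3 minus cluster 0. In SFB-positive libraries the mean over cells was 594 CPM for S phase and 222 for G2/M in cluster 2 (212 under the gene limit), and the G2/M level in cluster 3 was 4643 as a mean over cells and 4032 under the gene limit.

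In all B-lineage cells, without SFB-positive replicate 2, Cenpf turned to -0.10, Mki67 to -0.19 and Kif11 to -0.66 (log2). Under the gene limit Mki67 was at -0.20, Cenpe at -0.0051 and Kif11 at -0.43. With the gene limit and the block Cenpf was at -0.093, Mki67 at -0.37, Cenpe at -0.12, Rrm2 at -0.39, Kif20a at -0.27 and Kif11 at -0.57. In cluster 3 Mki67 was at -0.21 without SFB-positive replicate 2, Mcm2 at -0.073 without SFB-negative replicate 2 and -0.20 without SFB-positive replicate 1, and Kif20a at -0.36 without SFB-negative replicate 2. Pclaf in cluster 0 was at 0.066 without SFB-negative replicate 2. In Igha minus Ighm cells Top2a was at 0.23 under the gene limit and Rb1 at 0.26 without SFB-positive replicate 2. Over all libraries left out in turn, the log2 differences ran from -0.10 to 1.71 for Cenpf, -0.19 to 2.0 for Mki67 and -0.66 to 1.92 for Kif11 in all B-lineage cells. The same ranges were -0.21 to 1.53 for Mki67, -0.20 to 1.61 for Mcm2 and -0.36 to 1.35 for Kif20a in cluster 3, -2.0 to 0.066 for Pclaf in cluster 0 and -1.15 to 0.26 for Rb1 in Igha minus Ighm cells. The cause was not tested. The SFB test in cluster 5 could not be run, with 1 and 0 cells in the replicate 1 libraries, and cluster 6 was not tested. With 2 libraries per group and depth that differs by replicate number, genes of few UMIs have wide errors.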

Other observations

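Barcodes with more genes than any cell of the authors' table numbered 5, 155, 13 and 190 in the 4 libraries and lay outside the comparisons. Their S-phase level was 2492, 2689, 5016 and 4297 CPM, and their G2/M level was 9124, 4742, 4527 and 6486. Their summed germinal-centre markers were 1264, 1184, 786 and 1368 CPM, below the 2051, 1819, 2010 and 2214 of cluster 3. B-lineage markers summed to 4122, 2279, 2146 and 2001 CPM, against 6246, 3512, 5313 and 3436 in cluster 3. T cell markers summed to 1631, 81.0, 11.2 and 47.4 CPM, against 11.7, 22.0, 13.7 and 12.4 there. Which cells these barcodes hold was not tested.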
